A study of Arabidopsis thaliana with 12 samples.

Results

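Roots of cork1-2 seedlings homozygous for the T-DNA insertion (HO) were compared with roots of segregated wild-type seedlings (SWT), both treated with cellotriose (CT). The comparison contrasts 6 of the 12 libraries of the study, namely the 3 HO and the 3 SWT libraries that received CT. It was made for 23103 of 23106 genes, with errors from a fit of all 12 libraries. The other 6 libraries, 3 of HO and 3 of SWT seedlings given water, show the same genotypes without CT. All seedlings of Arabidopsis thaliana descended from a cross of the insertion line cork1-2, in the Col-0 background, with AeqWT. AeqWT is the aequorin-containing wild type that carries the calcium reporter pMAQ2. SWT and HO thus share that origin and were separated by their genotype at the insertion. Whether they also differ at other loci was not tested. The T-DNA lies in an exon near the 3′ end of the gene, and a single insertion line was sequenced. Each library held the roots of 16 seedlings from 2 dishes of 8, after 10 days on MS medium and 1 day on PNM, treated for 1 h with 1 mL of either 10 µM CT or water. The labels give a number to each library of a group and do not say that libraries came from separate experiments, so p-values measure the spread between libraries, which may be technical.

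CORK1 is a receptor kinase of the plasma membrane with leucine-rich repeats and a malectin domain outside the cell. CT is a short chain of β-1,4-linked glucose units released from cellulose, and such fragments act as signals of damage to the cell wall. Receptor kinases that perceive molecules of this kind start calcium and oxidative signals, which are followed within an hour by transcription of defence genes. In Arabidopsis roots these genes include those for tryptophan-derived glucosinolates and camalexin, for jasmonate synthesis, for phenylpropanoids and for WRKY transcription factors.

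The level of a gene is given here as the mean normalized read count of a group of 3 libraries, recovered from the deposited values, with its 95% interval in parentheses where one is given. Values per library are not in these tables, so neither the number of libraries on each side nor their overlap can be given. The log2 difference is HO minus SWT on the log2 scale with its standard error (SE). A gene was called when its adjusted p was below 0.05 and its log2 difference was at least 1.33 in size, which is 2.51-fold. Reads of a gene and of a partner on the opposite strand may be mixed, since no source used here gives the strand setting, and this applies to LOX1, ASA1, AT2G04400, NRT1.5, TPX2, AT3G01260, TCH3, WRKY33, WRKY40, FRK1, SOBIR1, SARD1, EDS5, 4CL1, CESA1, NOP56, MYB72, AT1G56165, AT1G53440, AT1G56180, AT3G13610, AT4G20830 and AT4G20860. Depth per library is unknown. The median SE of the log2 difference with CT was 0.138 for genes with a mean of 500 to 5000 counts, 0.483 for 10 to 50 counts and 1.39 below 10 counts.

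The transcript of the mutated gene was lower in HO in either treatment. CORK1 (AT1G56145, chr1:21008057-21014095 on the reverse strand of TAIR10.1, 23 exon blocks) had levels of 1413 (1225 to 1629) in SWT with water, 1999 (1735 to 2303) in SWT with CT, 255 (218 to 298) in HO with water and 302 (259 to 352) in HO with CT. With CT the HO level was 15.1% of the SWT level, a log2 difference of -2.73 (SE 0.15, adjusted p 8.16e-67). In water it was 18.1%, and the log2 differences with and without CT could not be told apart (adjusted p of their difference 0.772). Reads that map 5′ of the insertion are part of these counts.

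Most genes that separated the genotypes under CT were lower in HO. Of the 23103 genes, 745 were called (3.22%), of which 690 were lower in HO (2.99%) and 55 were higher (0.238%). The genes called lower had a median log2 difference of -2.05, which is 4.14-fold, with quartiles of -3.02 and -1.63. The genes called higher had a median of 1.74, and the median over all tested genes was 0.0016. Against a floor of 3 counts over a group, 364 genes were at least 4-fold lower in HO and 55 at least 16-fold lower, whereas 15 were at least 4-fold higher. By adjusted p alone 3068 genes passed (13.3%), 2080 of them lower in HO, so the share of lower genes was 67.8% without the fold criterion and 92.6% with it. Alternative settings gave 494 genes with a t distribution of 8 degrees of freedom and 406 with z divided by its robust spread. They gave 371 with the 3 deposited variances summed and 181 when tested against the fold criterion. Most genes were lower in HO in each. Summing the variances ignores that the contrasts share groups. The robust spread of z was 1.65 with CT and 0.912 in water, over genes that averaged 50 counts or more.

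The 4 group levels show where the called genes stood. The 690 genes lower in HO had median levels of 98.2 in SWT with water, 376 in SWT with CT, 64 in HO with water and 78.6 in HO with CT. In these medians the SWT group with CT stood above the other groups. The call selects SWT levels above those of HO with CT, so this order partly follows from the selection. The HO level with CT lay below the level of SWT in water for 512 of the 690 genes (74.2%). The same selection favours this count. The 55 genes higher in HO had medians of 94.9, 25.4, 94.5 and 95.1 in the same order. SWT with CT was the low group, which their selection also favours. A group level at or under 3 counts over the group was found for 36 of the lower genes, all in HO, and for 3 of the higher genes, all in SWT.

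**Figure D1:**
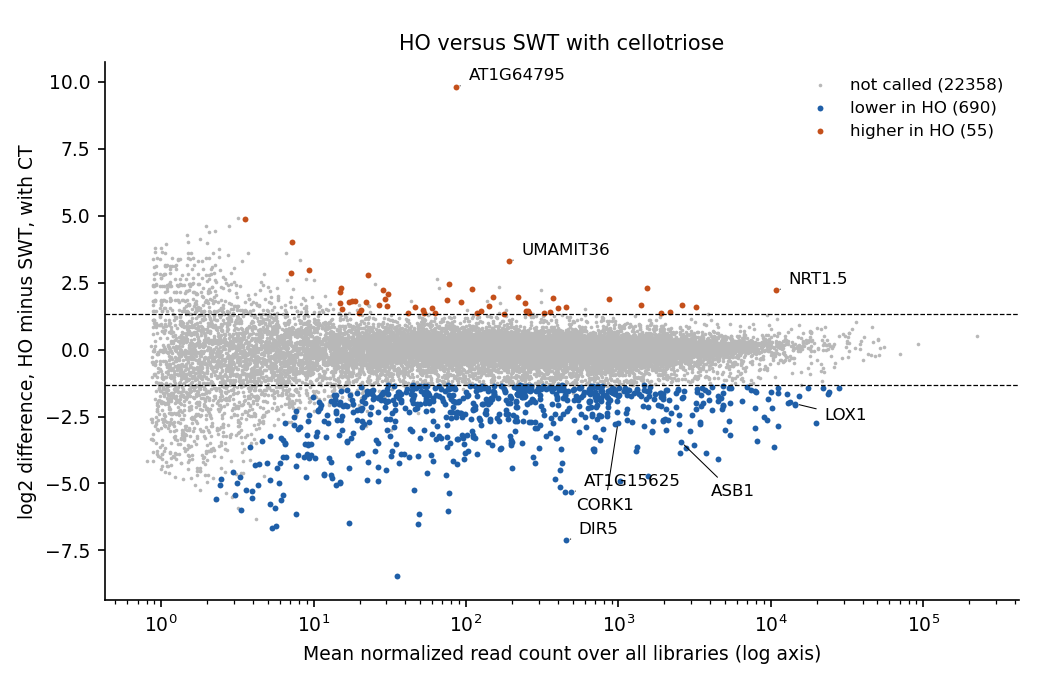
Mean normalized read count over all 12 libraries (log axis) against the log2 difference of HO minus SWT with CT, 1 point per gene, with the fold criterion of 1.33 as dashed lines. The 690 genes called lower in HO are spread over the range of mean counts, the 55 called higher are fewer and nearer to the criterion, and AT1G64795 stands at the top because its SWT level was under the floor of 3 counts.

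Markers of the tissue were checked before the gene groups. All 12 markers of root cell types were tested, among them the endodermal gene CASP1 and the root cap gene SMB. Of these 12 genes 0 were called, against 3.22% of all tested genes. Their median log2 difference with CT was 0.024, with a range of -0.28 to 0.45. The 9 reference transcripts, such as UBQ10 and ACT8, gave 0 calls and a median of 0.091. Genes of shoot photosynthesis were present in these root libraries, and their summed level over 10 members was 7385 in SWT with water, 4743 in SWT with CT, 8306 in HO with water and 7874 in HO with CT. Of these 10, 5 passed the adjusted p with higher levels in HO, against 988 higher of all 23103 tested genes. None of the 5 reached the fold criterion. The list had a median of 0.69, and RBCS2B was at or under the floor in both CT groups. RBCS1A, a small subunit of Rubisco, had levels of 1721, 1213, 1905 and 2004 in the order SWT water, SWT CT, HO water, HO CT, which is also the order of the 4 levels given below. In bulk roots fewer cells of a type and less RNA per cell cannot be told apart. The part of shoot transcripts in the results below was not tested.

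Some transcripts that follow heat or touch were lower in HO with CT. Of 8 such genes 5 were called lower in HO with CT, against 2.99% of all tested genes. The median log2 difference of the 8 was -1.84 with CT and -0.23 in water. TCH3, a touch-induced calmodulin-like protein, had levels of 541, 4032, 347 and 292 (log2 difference -3.79, SE 0.52, adjusted p 2.86e-11). HSFA2, a heat stress transcription factor, had 77.7, 249.6, 62.3 and 53.5 (-2.22, SE 0.51), and the chaperone HSP90.1 had 1555, 9046, 1639 and 1391 (-2.70, SE 0.83). SWT with CT held the high level of each of these genes. The other touch genes did not pass, with log2 differences of -0.93 (SE 0.69) for TCH4 and 0.17 (SE 0.23) for TCH2. The part of handling in the results below was not tested, and with a t distribution of 8 degrees of freedom, or with z divided by its spread, the count of 5 fell to 1.

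The 8 largest deficits in HO were ranked among called genes that averaged 50 counts or more and had both CT groups above the floor. All belonged to genes whose level was highest in SWT with CT, an order that the ranking itself favours. The mean runs over all libraries, so a high SWT level with CT also helps a gene to pass that filter. DIR5, AT5G52670, AT4G28420 and GSTU12 were each below 50 counts in the other groups. DIR5, a dirigent protein involved in the synthesis of the lignan (-)pinoresinol, had levels of 34.3 (11.4 to 104) in SWT with water, 1751 (589.6 to 5202) in SWT with CT, 20.5 (6.71 to 62.6) in HO with water and 12.5 (4.03 to 38.9) in HO with CT. Its HO level with CT was 139.8-fold lower than that of SWT (log2 difference -7.13, SE 1.16, adjusted p 3.42e-08), and the wide intervals show how far this value can move. AT5G52670, annotated as a copper transport protein, had levels of 15.1, 282, 2.67 and 4.28 and a log2 difference of -6.04 (SE 0.55). It overlaps AT5G07905 on the opposite strand. The tyrosine transaminase gene AT4G28420 had 12.8, 289, 1.02 and 7.15 (-5.34, SE 1.2). Its call was lost with the 3 variances summed, with z divided by its spread and against the fold criterion. GSTU12, a tau-class glutathione S-transferase, had 46.9, 1669, 13 and 41.9 (-5.32, SE 0.64).

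The remaining 4 of the 8 genes with the largest deficits in HO were similar in pattern. AT1G15625, annotated as an E3 ubiquitin-protein ligase, had levels of 55.7 (43.1 to 72) in SWT with water, 1813 (1472 to 2233) in SWT with CT, 41.6 (31.7 to 54.5) in HO with water and 45.6 (35 to 59.6) in HO with CT, and it had the smallest p of all genes (log2 difference -5.31, SE 0.25, adjusted p 1.30e-96). The cytochrome P450 gene CYP706A2 had 68.6, 1507, 33.4 and 42.6 (-5.14, SE 0.74). Of its 75-base windows 55.5% occur elsewhere in the genome, so its reads can be shared with a near-identical copy. AT3G16530, a lectin-like protein known to be induced by chitin oligomers, had 155, 3764, 54.4 and 126 (-4.90, SE 0.61), and it overlaps AT3G16525 on the opposite strand. MSRB8, a methionine sulfoxide reductase that repairs oxidized proteins, had 132, 1292, 52.1 and 45.6 (-4.83, SE 0.58).

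Tryptophan synthesis had the lowest median of the gene lists and kept its calls under every alternative given below. Of 10 genes 7 were called lower in HO with CT and 0 higher, against 2.99% and 0.238% of all tested genes. The median log2 difference was -2.62 with CT against -0.20 in water. ASA1 (AT5G05730), the catalytic subunit of anthranilate synthase at the entry of the pathway, had levels of 883 (717 to 1087) in SWT with water, 12551 (10225 to 15406) in SWT with CT, 647 (525 to 798) in HO with water and 873 (709 to 1075) in HO with CT. The 3 groups other than SWT with CT lay close together, and ASA1 was 14.4-fold lower in HO with CT (log2 difference -3.85, SE 0.22, adjusted p 7.78e-68). ASB1, the β subunit of the same enzyme, had 760.1, 8174, 655 and 745 (-3.46, SE 0.17), although 33.7% of its windows occur elsewhere and it overlaps AT1G25211, AT1G05927 and AT1G05933. AT2G04400, an aldolase-type TIM barrel protein placed in this list, had 1191, 8544, 1042 and 1048 (-3.03, SE 0.17). TSA1, the α chain of tryptophan synthase, had 2997, 22922, 2319 and 3024 (-2.92, SE 0.20). All 7 calls held with the t distribution, with the 3 variances summed, with z divided by its spread and against the fold criterion.

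The upstream sequence of the genes with the smallest p was read from TAIR10.1. WRKY transcription factors bind the W-box, whose core is TTGAC, and basic leucine zipper and helix-loop-helix factors bind the G-box CACGTG. Both were searched on both strands in the 250 bases before the annotated gene start, where a match of one may share a base with the other. Printed 5′ to 3′ on the strand of the gene are the windows of the 4 genes called lower with the smallest p whose window lies outside annotated genes, and of the first such gene called higher, with the W-box core in capitals. ASB1 (chr1:8839610-8839859, reverse strand) holds 3 cores, AT2G04400 (chr2:1530898-1531147, forward strand) and ASA1 (chr5:1722934-1723183, reverse strand) hold 1 each, and LOX1 (chr1:20525404-20525653, forward strand) and CYP71B26 (chr3:9634823-9635072, reverse strand) hold 0.
ASB1: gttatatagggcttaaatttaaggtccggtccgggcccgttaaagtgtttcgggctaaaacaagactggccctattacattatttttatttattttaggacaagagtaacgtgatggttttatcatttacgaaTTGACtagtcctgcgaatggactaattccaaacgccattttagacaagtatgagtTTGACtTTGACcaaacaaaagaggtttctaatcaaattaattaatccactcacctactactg
AT2G04400: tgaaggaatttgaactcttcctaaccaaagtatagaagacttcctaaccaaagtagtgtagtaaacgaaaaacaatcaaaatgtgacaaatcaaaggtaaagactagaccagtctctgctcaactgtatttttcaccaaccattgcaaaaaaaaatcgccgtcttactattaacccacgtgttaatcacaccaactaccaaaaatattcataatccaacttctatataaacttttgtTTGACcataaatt
ASA1: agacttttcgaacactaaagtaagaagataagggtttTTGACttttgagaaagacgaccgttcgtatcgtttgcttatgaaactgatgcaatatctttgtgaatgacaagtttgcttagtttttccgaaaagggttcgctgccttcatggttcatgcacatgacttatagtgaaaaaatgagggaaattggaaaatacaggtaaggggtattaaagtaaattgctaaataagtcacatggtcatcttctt
LOX1: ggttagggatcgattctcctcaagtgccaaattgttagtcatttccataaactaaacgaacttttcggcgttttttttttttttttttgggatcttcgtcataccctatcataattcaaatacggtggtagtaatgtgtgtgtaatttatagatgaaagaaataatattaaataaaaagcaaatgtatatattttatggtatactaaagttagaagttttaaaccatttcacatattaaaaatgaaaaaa
CYP71B26: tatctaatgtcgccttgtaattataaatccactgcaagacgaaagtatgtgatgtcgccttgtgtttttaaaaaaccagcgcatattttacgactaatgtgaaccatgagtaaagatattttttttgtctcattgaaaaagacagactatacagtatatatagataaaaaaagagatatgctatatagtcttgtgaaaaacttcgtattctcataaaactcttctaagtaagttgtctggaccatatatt

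Over all genes the W-box core was more frequent before the genes called lower. At least 1 core was found in 66% of the 689 windows of genes called lower, in 47.3% of the 55 of genes called higher and in 45.3% of the 22980 windows of all tested genes. The shares with at least 3 cores were 14.1%, 5.45% and 3.5%. The G-box was found in 6.68%, 9.09% and 6.99% of the same windows. The mean GC content was 30.9%, 30.7% and 31.6%. These shares describe letters in a window, and binding was not measured.

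Indole glucosinolates are sulfur-rich defence compounds made from tryptophan. Of 19 genes of this branch 11 were called lower in HO with CT and 0 higher, against 2.99% and 0.238% of all tested genes. By adjusted p alone 16 passed, all lower, against 2080 lower of all 23103. The median log2 difference was -1.43 with CT and -0.072 in water. MYB51, a transcription factor that activates the branch, had levels of 341 (267 to 435) in SWT with water, 4339.7 (3425 to 5498) in SWT with CT, 233 (182 to 298) in HO with water and 352 (276 to 449) in HO with CT and was 12.3-fold lower in HO with CT (log2 difference -3.63, SE 0.25, adjusted p 1.93e-44). GGP1, a γ-glutamyl peptidase, had 4497, 18692, 4008 and 4094 (-2.19, SE 0.15), and the glucosyltransferase UGT74B1 had 1698, 7959, 1616 and 1709 (-2.22, SE 0.18). SOT16, the sulfotransferase of the final step, had 2493, 14263, 2281 and 2266 (-2.65, SE 0.19). In each of the 4 genes the HO level with CT was far nearer to the water groups than to SWT with CT.

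Aliphatic glucosinolates are made from methionine by related enzymes. Of 10 genes 1 was called lower and 1 higher, against 2.99% and 0.238% of all tested genes. The median log2 difference with CT was 0.28. SOT17, a sulfotransferase, had levels of 604, 4156, 528 and 582 and was lower in HO with CT (-2.84, SE 0.25, adjusted p 2.08e-26). CYP79F1, a cytochrome P450 of the first step of the core pathway, had 20.3, 5.32, 15.7 and 17.8 and was higher (1.74, SE 0.60, adjusted p 0.0328). That call was lost with the t distribution, with the 3 variances summed and with z divided by its spread. It was also lost against the fold criterion and at an adjusted p below 0.01. CYP83A1 and MAM1 did not pass, with log2 differences of 1.32 (SE 0.54) and 0.86 (SE 0.61).

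Genes for camalexin and related indole compounds differed between the genotypes with CT and also showed negative values in water. Of 8 genes 5 were called lower in HO with CT and 0 higher, against 2.99% and 0.238% of all tested genes. The median log2 difference was -2.22 with CT and -1.50 in water. CYP82C2, a cytochrome P450 of indole cyanogenic compounds, had levels of 1016 (649.6 to 1588) in SWT with water, 6256 (4006 to 9769.9) in SWT with CT, 156 (99.1 to 246) in HO with water and 773 (494 to 1209.8) in HO with CT. It was called in both treatments, and HO held 12.4% of the SWT level with CT and 15.4% in water (adjusted p 4.55e-09 and 2.83e-05). CYP71A12, which acts on indole-3-acetaldoxime, had 2088, 15569, 390.4 and 1952, with 12.5% and 18.7% (adjusted p 3.51e-06 and 0.0158). The FAD-binding berberine family gene AT1G26380 had 821, 16097, 243 and 959 (-4.07 with CT, SE 0.58). WRKY33, a regulator of camalexin genes, had 966, 2109.8, 667 and 925 and passed the adjusted p without reaching the fold criterion (-1.19, SE 0.14). The count of 5 was 3 with z divided by its spread and 2 with the 3 variances summed or against the fold criterion.

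Jasmonate is made from membrane lipids by lipoxygenases and later enzymes, and JAZ proteins repress its target genes while being induced by it. Of 25 genes 10 were called lower in HO with CT and 0 higher, against 2.99% and 0.238% of all tested genes. The adjusted p was passed by 16, all lower, against 2080 lower of all 23103. The median log2 difference was -1.06. Tested against the fold criterion, 6 of the 10 were left. LOX4, a lipoxygenase of the pathway, had levels of 32.9, 179, 20.9 and 25 (-2.84, SE 0.27), and OPR3, a reductase later in the pathway, had 796, 2245, 834 and 780.1 (-1.53, SE 0.15). Among the repressors JAZ1 had 1228, 4395, 968 and 1025 (-2.10, SE 0.22) and JAZ6 had 382, 1902, 325 and 350.2 (-2.44, SE 0.22). LOX1, a lipoxygenase outside this list that oxidizes fatty acids at another carbon, was among the 4 genes with the smallest p: its levels were 9057 (8144 to 10072) in SWT with water, 33153 (29826 to 36849.9) in SWT with CT, 7444 (6693 to 8279.6) in HO with water and 8153 (7331 to 9067) in HO with CT, and its log2 difference was -2.02 (SE 0.11, adjusted p 3.15e-71).

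Of 13 salicylate genes 2 were called lower with CT, against 2.99% of all tested genes. These were CBP60G, a calmodulin-binding transcription factor, with levels of 60.4, 223, 15 and 43 (-2.37, SE 0.43), and its relative SARD1, with 28.9, 71.7, 15.7 and 13.9 (-2.37, SE 0.53). The count was 0 when the test was made against the fold criterion itself or when the 3 variances were summed. CBP60G was also called in water (adjusted p 0.0162). HO held 19.3% of its SWT level with CT and 24.9% in water. The log2 differences of CBP60G with and without CT could not be told apart (adjusted p of their difference 0.926). EDS5, a transporter needed for salicylate accumulation, had 926, 1909, 1117 and 1038 and passed the adjusted p alone (-0.88, SE 0.14). Of 12 ethylene synthesis genes 0 were called, against 3.22% of all tested genes. In this list 3 passed the adjusted p, all lower in HO, against 2080 lower of all 23103. Among the 3 were ACS6, an ACC synthase, with -1.01 (SE 0.17), and EFE, an ACC oxidase, with -0.87 (SE 0.13).

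Receptors and kinases of immunity showed differences that were mostly below the fold criterion. Of 20 genes 14 passed the adjusted p, all lower in HO with CT, against 2080 lower of all 23103 tested genes. Called were 2, against 2.99% of all tested genes called lower, and 0 when tested against the fold criterion. The median log2 difference was -0.83. FRK1, a kinase gene induced by bacterial flagellin, had levels of 391, 1817, 376 and 478 and was called together with FLS2, the flagellin receptor (for FRK1 -1.93, SE 0.26, adjusted p 1.59e-11). RBOHD, the NADPH oxidase of the oxidative burst, had 2147, 4356, 1878 and 2053 (-1.09, SE 0.15). CERK1, the chitin co-receptor kinase, had 1473, 3336, 1453 and 1579 (-1.08, SE 0.16), and SOBIR1, a co-receptor of receptor-like proteins, had -0.89 (SE 0.13).

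The phenylpropanoid pathway converts phenylalanine to lignin precursors. Of 19 genes 7 were called lower in HO with CT and 0 higher, against 2.99% and 0.238% of all tested genes. By adjusted p alone 14 passed, all lower, against 2080 lower of all 23103. The median log2 difference was -0.99 with CT and 0.021 in water. C4H, cinnamate 4-hydroxylase, had levels of 15499, 48619.5, 15729.9 and 16256 (-1.58, SE 0.17), and 4CL1, which activates the acids as CoA esters, had 5765, 24370.5, 5195 and 5313 (-2.20, SE 0.19). HCT, a hydroxycinnamoyl transferase, had 5084, 14342, 5239 and 4990.4 (-1.52, SE 0.15). CCoAOMT1, a methyltransferase of the pathway, had a smaller difference with a small error (-0.70, SE 0.07) and was not called. Tested against the fold criterion itself, 1 of the 7 genes was left.

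WRKY factors bind W-boxes and are induced by many elicitors. Of 62 genes with a WRKY symbol 11 were called lower in HO with CT and 0 higher, against 2.99% and 0.238% of all tested genes. The median log2 difference was -0.55. WRKY30, one of the transcripts that the study also followed by qPCR, had levels of 18.9 (12.6 to 28.4) in SWT with water, 186 (134 to 256) in SWT with CT, 13.4 (8.63 to 20.8) in HO with water and 20.7 (13.9 to 30.9) in HO with CT, and its log2 difference was -3.16 (SE 0.38, adjusted p 6.21e-15). WRKY40 had 89.8, 606, 55.1 and 54.7 (-3.47, SE 0.43). WRKY28, a factor linked to salicylate synthesis, had 75.9, 276, 52.1 and 33.6 (-3.04, SE 0.34). In these genes SWT with CT was the high group and the other 3 levels lay far below it. The count of 11 was 3 when tested against the fold criterion, 6 with the 3 variances summed and 7 with z divided by its spread.

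**Figure D2:**
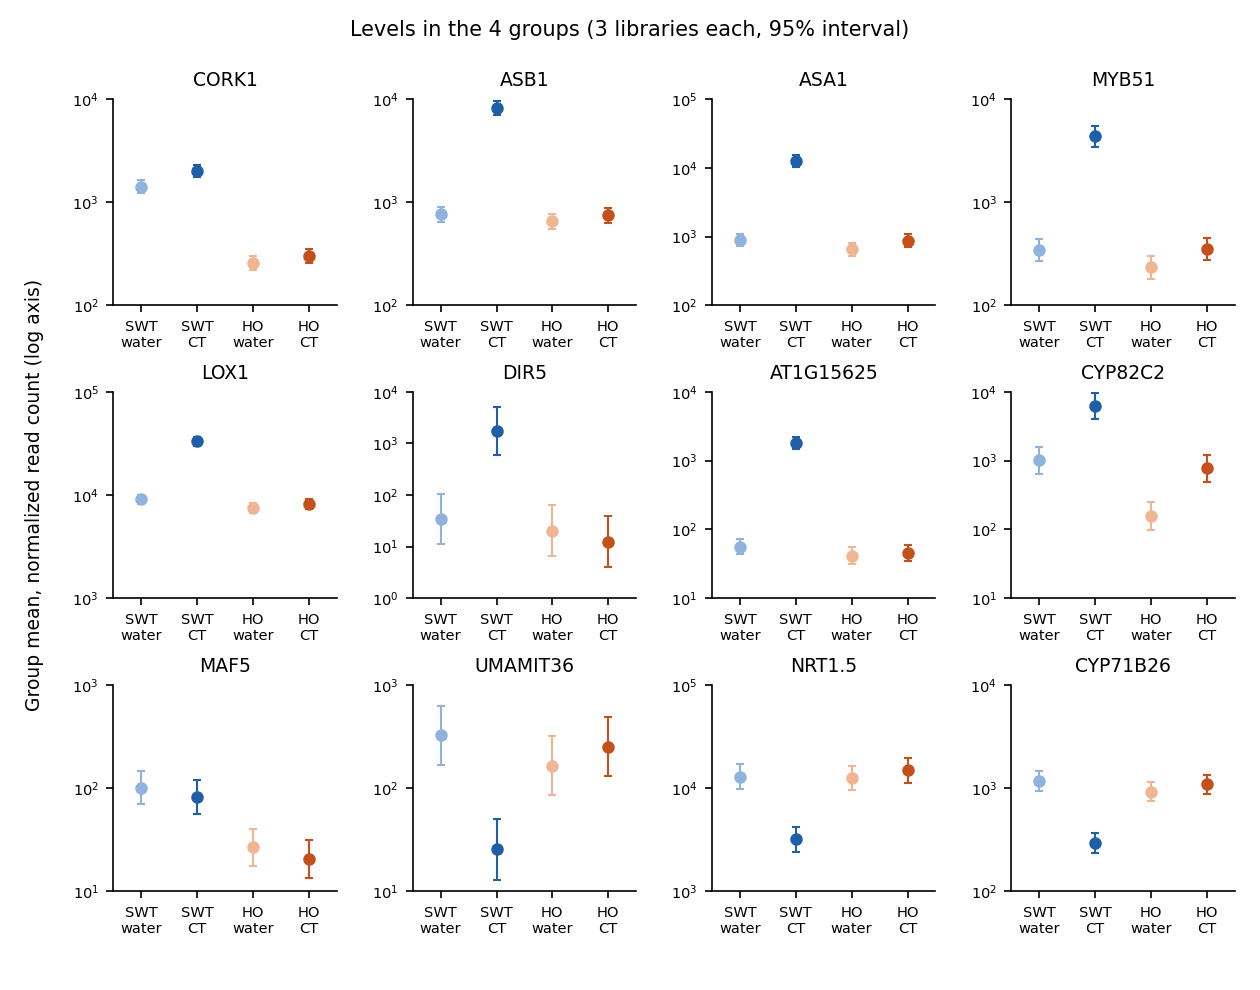
Group mean normalized read counts (log axis) of 12 genes in the 4 groups of 3 libraries each, with 95% intervals from the fit. CORK1, CYP82C2 and MAF5 are lower in HO in both treatments, ASB1, ASA1, MYB51, LOX1, DIR5 and AT1G15625 are high only in SWT with CT among the 4 groups, and UMAMIT36, NRT1.5 and CYP71B26 are lowest in SWT with CT.

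Some relatives of CORK1 were lower in HO with CT. Of 11 other kinases with leucine-rich repeats and a malectin domain 3 were called lower, against 2.99% of all tested genes. The adjusted p was passed by 6, all lower, against 2080 lower of all 23103. When tested against the fold criterion 1 was left, and the median log2 difference was -0.71. AT1G56130 had levels of 93.4 (69.7 to 125) in SWT with water, 609 (463 to 799.6) in SWT with CT, 60.3 (44.4 to 81.9) in HO with water and 73.7 (54.6 to 99.5) in HO with CT (log2 difference -3.05, SE 0.30), and AT1G56140 had 2023, 4686, 1502 and 1666 (-1.49, SE 0.16). AT1G56140 lies next to CORK1 on chromosome 1 and AT1G56130 beyond it, and in water neither passed (adjusted p 0.678 and 0.9997). AT1G53440 had 517, 1615, 406 and 553 (-1.55, SE 0.20), and AT1G53430 had 1593, 3527, 1255 and 1446 and missed the fold criterion (-1.29, SE 0.15).

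Genes that make or modify cellulose differed little. Of 13 cellulose synthesis genes 0 were called, against 3.22% of all tested genes. By adjusted p alone 7 passed, all higher in HO with CT, against 988 higher of all 23103. The median log2 difference was 0.32 with CT and 0.20 in water. CESA2, a catalytic subunit of primary wall cellulose synthase, had levels of 4528, 3659.5, 5267 and 5328 (0.54, SE 0.10), and CESA1 had 14902, 12711, 17905 and 17344 (0.45, SE 0.13). The list of FAD-binding berberine family genes does not hold AT1G26380 above. Of its 4 tested genes 1 was called, against 3.22% of all tested genes. This was AT4G20830, with levels of 2121, 8241, 1983 and 2060.5 (-2.00, SE 0.15). AT4G20860 had 7398, 13405, 5300.1 and 6644 and passed the adjusted p alone (-1.01, SE 0.22).

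Few iron deficiency genes were called. Of 22 genes 1 was called lower and 1 higher in HO with CT, against 2.99% and 0.238% of all tested genes. The median log2 difference was 0.09 with CT and -0.48 in water. AT3G13610, the F6'H1 dioxygenase that makes iron-chelating coumarins, had levels of 4312, 14622, 3074 and 3838 and was lower (-1.93, SE 0.17, adjusted p 3.48e-26). The helix-loop-helix factor BHLH100 had 103, 21.8, 51.6 and 63.6 and was higher (1.55, SE 0.55, adjusted p 0.0382), and its relative bHLH39 had 395, 125, 286 and 293 and passed the adjusted p alone (1.23, SE 0.29). In both the low group was SWT with CT. The call of BHLH100 was lost with a t distribution of 8 degrees of freedom, with the 3 variances summed and with z divided by its spread. It was also lost against the fold criterion and at an adjusted p below 0.01.

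**Figure D3:**
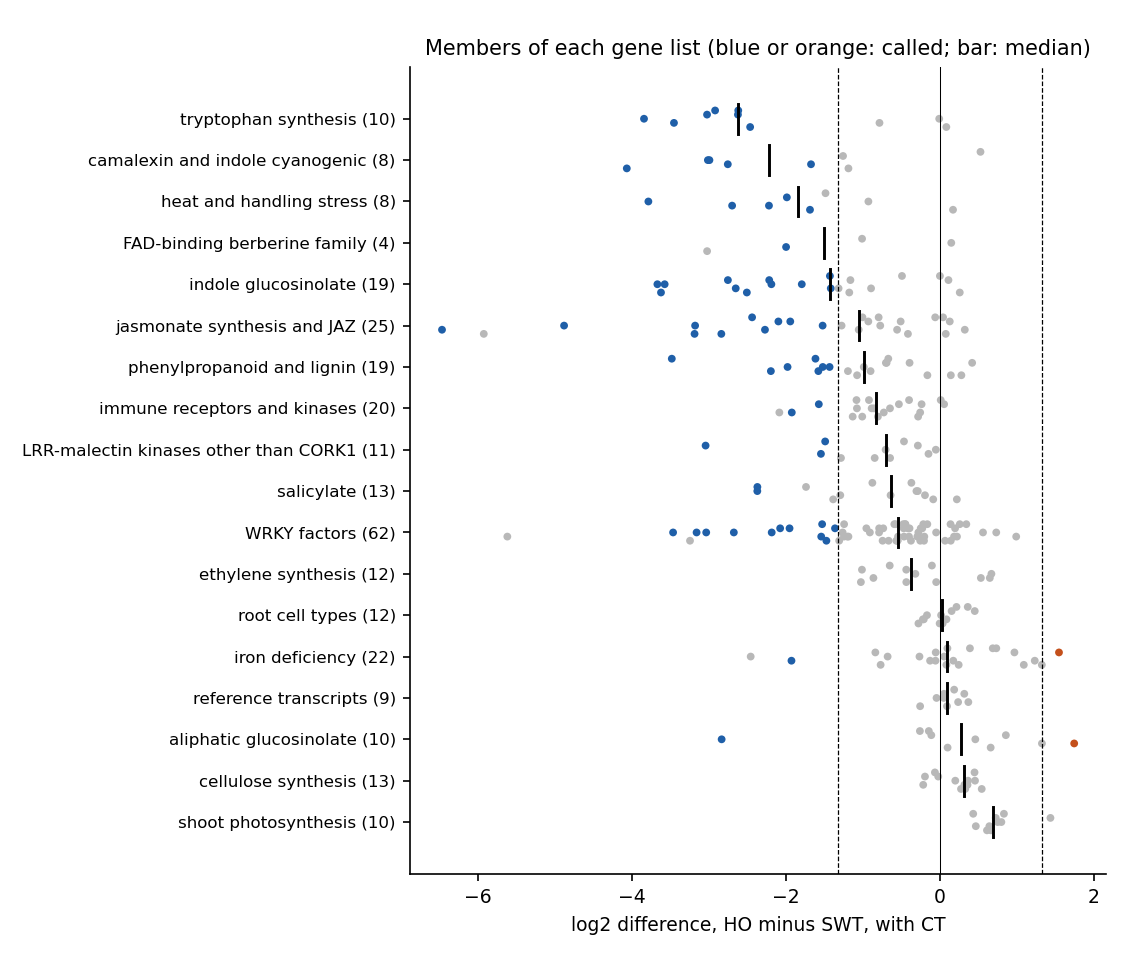
Log2 difference of HO minus SWT with CT for the tested members of each gene list (number in brackets), with called genes in blue (lower in HO) or orange (higher), other members in grey, medians as bars and the fold criterion as dashed lines. Tryptophan synthesis has the lowest median, -2.62, and shoot photosynthesis the highest, 0.69.

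In 54 of the 55 genes called higher in HO with CT, the SWT level was lower with CT than in water. The call itself selects a low SWT level with CT, so this count partly follows from the selection. UMAMIT36, a nodulin MtN21-like transporter, had levels of 323 (168 to 619) in SWT with water, 25.4 (12.8 to 50.3) in SWT with CT, 165 (85.7 to 317) in HO with water and 251 (131 to 481) in HO with CT and was 9.89-fold higher (log2 difference 3.31, SE 0.70, adjusted p 5.19e-05). NRT1.5, which loads nitrate into the xylem, had 12809 (9694 to 16925) in SWT with water, 3189.8 (2413 to 4217) in SWT with CT, 12465 (9434 to 16471) in HO with water and 14775 (11182 to 19522) in HO with CT and was 4.63-fold higher (2.21, SE 0.29, adjusted p 2.12e-12). The SWT level with CT stood apart from the 3 other levels in both genes. The call of UMAMIT36 was lost with summed variances, with z divided by its spread and against the fold criterion, and that of NRT1.5 against the fold criterion. CYP71B26, a putative cytochrome P450 and the gene called higher with the smallest p, had 1168, 289, 921 and 1083 (1.90, SE 0.23, adjusted p 1.25e-14). The MATE efflux family gene AT5G65380 had 2713, 970.2, 2494 and 2529 (1.38, SE 0.17).

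Of the other genes with the largest excess in HO, PR-1-LIKE had levels of 109, 17.6, 88.7 and 95.1 (2.43, SE 0.48) and TPX2, a thioredoxin-dependent peroxidase, had 1961, 405, 1864 and 1968 (2.28, SE 0.64). AT1G67105, which carries no product name, had 83.7, 35.7, 146 and 171 (2.26, SE 0.39), and here HO exceeded SWT in water as well, without passing (adjusted p 0.9997). AT4G08555, AT2G29320 and AT3G01260 had log2 differences of 1.98 (SE 0.44), 1.95 (SE 0.31) and 1.90 (SE 0.64). PR-1-LIKE, TPX2, AT4G08555 and AT3G01260 lost their calls with summed variances, with z divided by its spread and against the fold criterion. TPX2 and AT3G01260 also lost theirs with the t distribution. The higher calls depended on the test: 55 by the main test, 20 with a t distribution of 8 degrees of freedom, 15 with z divided by its spread and 1 when tested against the fold criterion.

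The same genotypes were compared in water, with levels from libraries other than those given CT. Both comparisons share 1 fit with 1 dispersion per gene, so their p-values are not independent. There 30 genes were called (0.13%), 26 lower and 4 higher in HO. Of these 21 were also called with CT, which is 70% of the water calls and 2.82% of the CT calls, and all 21 had the same direction in both. The 690 genes called lower with CT had a median log2 difference in water of -0.43, with quartiles of -0.91 and -0.12. In water 85.2% of them had a value below 0, against 49.7% of all tested genes, and 30% were lower at an unadjusted p below 0.05, against 3.42%. For the 55 genes called higher with CT the median in water was 0.051, and 3 were higher at an unadjusted p below 0.05. Over the 17561 genes that averaged 50 counts or more the log2 differences in water and with CT had a Pearson correlation of 0.468 and a Spearman correlation of 0.316 across genes, which are not independent replicates.

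**Figure D4:**
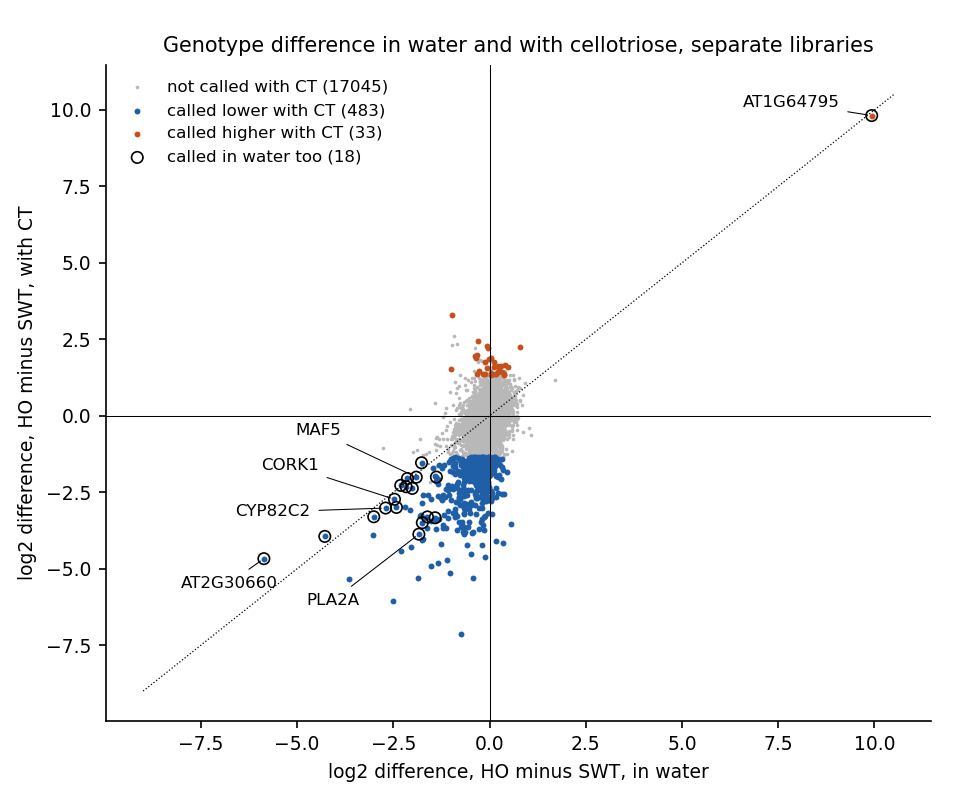
Log2 difference of HO minus SWT in water against that with CT for genes with a mean count of at least 50, measured in separate libraries, with equal values on the dotted line and genes called in both comparisons circled. Genes called lower with CT spread far below 0 on the CT axis and sit mostly to the left of 0 in water, whereas CORK1, CYP82C2 and MAF5 lie near the line.

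Most genes called in both treatments had higher levels with CT than in water, in 18 of 21 for SWT and in 18 for HO. The selection favours both counts. Of the 21 genes 20 were lower in HO, and their calls select high SWT levels with CT and low HO levels in water. After CORK1 the smallest p belonged to ABO3, a WRKY factor linked to abscisic acid and drought, with levels of 50.8 (37.3 to 69.2) in SWT with water, 256 (194 to 336) in SWT with CT, 19.1 (13.2 to 27.6) in HO with water and 25.3 (17.9 to 35.9) in HO with CT. HO held 9.92% of the SWT level with CT and 37.5% in water, and these differences were unequal (adjusted p 0.00335). PLA2A, a lipid acyl hydrolase that accumulates on infection, had 645, 8731, 181 and 597, with 6.83% and 28% (adjusted p of the difference 0.0263). The glutathione S-transferase gene AT5G44990 had 26, 197, 1.338 and 12.8, with 6.5% and 5.15%. AT5G22555, an uncharacterized protein, had 67.2, 334, 22 and 33.8, and the lectin receptor kinase gene AT5G65600 had 73.6, 768, 21.9 and 68.2. AT5G65600 overlaps AT5G65609 on the same strand.

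MAF5, AT1G64795, AT1G36920 and AT1G36922 were singled out after their values were seen, because each genotype had similar levels with and without CT or was at or near the floor in both treatments. MAF5, a MADS-box regulator of flowering time, had levels of 99.8 (69.1 to 144) in SWT with water, 81.8 (56.4 to 119) in SWT with CT, 26.7 (17.7 to 40.3) in HO with water and 20.4 (13.2 to 31.3) in HO with CT, so that HO held 24.9% of the SWT level with CT and 26.7% in water. AT1G64795, an uncharacterized protein, had 0.188 counts in SWT with CT and 169.6 in HO with CT, with 0.178 and 173 in water, so that both SWT levels were under the floor of 3 counts over the group. It overlaps AT1G64790 on the opposite strand. The uncharacterized genes AT1G36920 and AT1G36922 showed the reverse, with levels of 101, 92.5, 0.361 and 1.31 and of 76.7, 63.4, 0.669 and 0.182. AT2G30660, CRK40, CRK18, AT3G60270, AT2G25297, PXMT1, AT5G41750, AT1G08763 and CBP60G were also lower in HO in both treatments. The SWT level of each was higher with CT than in water, which their selection also favours. Over the 16 of the 21 genes with every group above the floor HO held 6.5% to 34.5% of the SWT level with CT and 5.15% to 38.4% in water.

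The genotype difference itself changed with treatment for a part of the genes. Subtracting the water difference from the CT difference gave an adjusted p below 0.05 for 913 genes (3.95%), with a more negative value under CT in 764 of them. Among the 690 genes called lower with CT 357 passed (51.7%), and among the 55 called higher 19 passed. This test uses all 12 libraries and shares those with CT with the calls. With a t distribution of 8 degrees of freedom 89 genes passed, and 357 passed with a difference that reached the fold criterion. AT1G15625, ASB1 and AT2G04400 had differences of -4.89, -3.24 and -2.83 on the log2 scale.

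Genes around CORK1 were examined because the chromosome segment near an insertion is inherited with it. Within 3 Mb of CORK1 on chromosome 1, 1255 other genes were tested, of which 0 were called in water, 50 were called lower with CT and 1 higher. Just outside that distance on the same side, 4 genes were called in both treatments: AT1G64795 at 3.07 Mb, AT1G08763 at 3.33 Mb, ABO3 at 3.84 Mb and PXMT1 at 3.86 Mb. Called genes made up 4.06% within 3 Mb, 4.92% of 386 genes within 1 Mb and 9.09% of 44 genes within 100 kb, against 3.67% on chromosome 1 and 2.88% to 3.45% on the other chromosomes. The nearest genes differed among themselves. AT1G56120, a further kinase of the family, had a log2 difference with CT of -0.71 (SE 0.29, adjusted p 0.0986), and NOP56, AT1G56180 and AT1G56190 had 0.12 (SE 0.17), -0.095 (SE 0.18) and 0.21 (SE 0.11). AT1G56150, MYB72 and AT1G56165 had levels of 9.34, 7.99, 1.7 and 7.24, of 9.97, 2.87, 5.38 and 4.62 and of 4.22, 7.6, 14.9 and 14.6, with SEs of 1.06, 1.1 and 0.58, and a difference was not detectable at this depth.

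**Figure D5:**
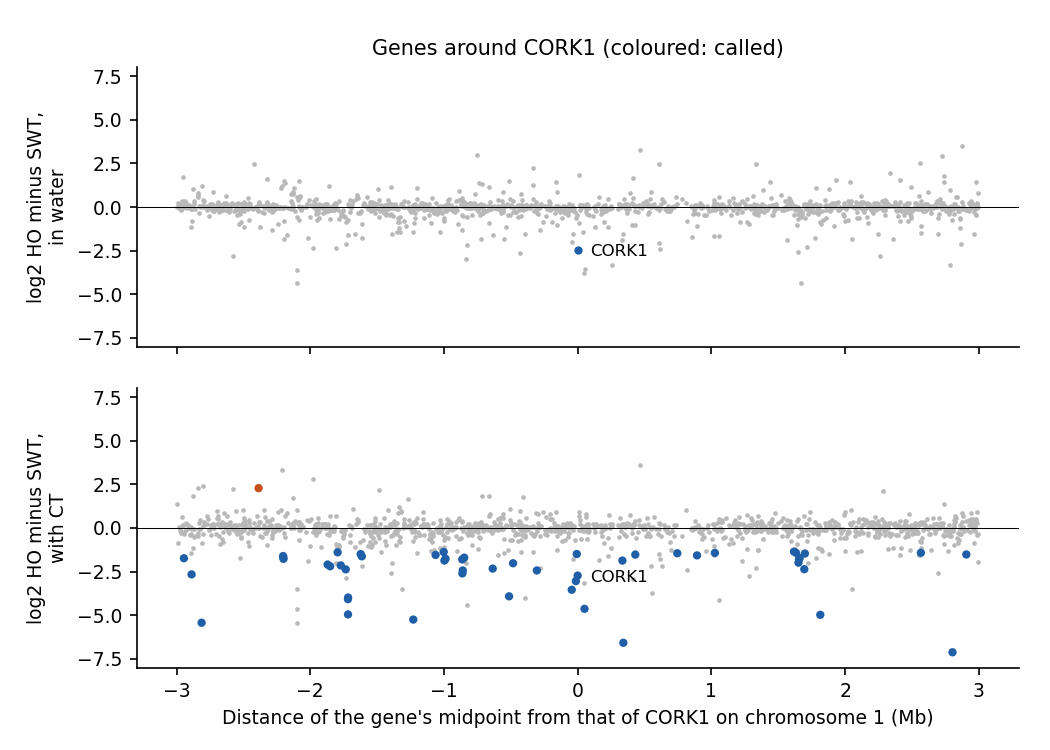
Log2 difference of HO minus SWT in water (top) and with CT (bottom) against the distance of each gene's midpoint from that of CORK1 (Mb), with called genes coloured blue (lower) or orange (higher). In water CORK1 is the single called gene within the 3 Mb shown, with AT1G64795 the nearest called gene outside it at 3.07 Mb, and with CT 50 other genes called lower and 1 called higher are spread over the interval.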

How the data were processed

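Poly-A RNA from roots was sequenced as paired reads in 12 libraries, 3 in each of 4 groups set by the genotype and treatment in their labels. According to the methods and processing notes of the authors, STAR v2.7.10a served for alignment to TAIR10, featureCounts v2.0.1 for counts of reads per gene and DESeq2 v1.34.0 for the fit. No source used here gives the strand setting. The authors deposited 3 tables, for HO versus SWT in water and for CT versus water in each genotype. The deposited signal is a mean normalized read count per gene over all libraries. The deposited log2 fold changes and their log2 SEs come from Wald tests, and a gene without a deposited p-value (3 genes) was not tested. The tables also hold a test statistic and an adjusted p, which were not used. They hold 0 columns of values per library.

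The tables used here do not compare HO with SWT under CT, so the response of HO to CT, less the response of SWT, was added to the difference in water. For the variance, those of both responses were added and that of the difference in water taken off, as 1 fit with a shared dispersion per gene allows. SEs rebuilt from the recovered dispersion and group means had a median ratio to the derived ones of 0.999. Two-sided p-values came from z and were adjusted over 23103 genes by the Benjamini-Hochberg method. Group means followed from the overall mean and the fold changes, and their intervals from the dispersion that the SEs imply. The script was tested on simulated data. The fold of 1.33 on the log2 scale and the adjusted p of 0.05 are the criteria of the study.

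The genes and the gene lists were chosen with earlier results of these data known. Named are CORK1; the 8 genes in each direction with the largest difference with CT (mean of at least 50, both CT groups above 3 counts over the group); the 4 in each direction with the smallest p; genes called in both treatments; up to 4 members of each list with the smallest p; AT1G56100 to AT1G56190; and WRKY30 and WRKY40. MAF5, AT1G64795, AT1G36920 and AT1G36922 are described, and genes in the marker lists named, after their values were seen. Symbols, products and positions are from RefSeq for TAIR10.1, where 22984 of 23106 genes had a symbol. Coordinates refer to TAIR10.1, and the build named by the authors is TAIR10. Of 115 named genes 32 overlap another gene, 2 of them on the same strand, and 5 have at least 5% of their 75-base windows elsewhere in the genome. Their values are uncertain to that extent. Alternatives were the fold criterion, the threshold, filters on the mean, centring, the reference distribution and the variance. Software was Python 3.11.15, numpy 2.4.6, pandas 2.3.3, scipy 1.17.1 and matplotlib 3.10.9.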

Additional observations from a re-analysis of the deposited data

Results flagged for a closer look

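The genotype difference, HO minus SWT, was unequal with CT and in water for 913 genes at an adjusted p below 0.05, tested as the difference of both responses to CT. Of the 115 named genes 55 passed this test, 46 with a more negative value under CT and 9 with a more positive one. The value in parentheses below is the log2 difference with CT minus that in water, and no explanation was tested.

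In tryptophan synthesis the values were ASB1 (-3.24), AT2G04400 (-2.83), ASA1 (-3.4) and TSA1 (-2.55). In the glucosinolate branches they were MYB51 (-3.07), GGP1 (-2.02), SOT16 (-2.53), UGT74B1 (-2.15) and SOT17 (-2.64). Among phenylpropanoid genes, 4CL1 (-2.05), HCT (-1.57), C4H (-1.6) and CCoAOMT1 (-0.73) passed. Jasmonate and lipoxygenase genes gave JAZ6 (-2.21), JAZ1 (-1.76), OPR3 (-1.59), LOX4 (-2.18) and LOX1 (-1.74). Among WRKY factors, WRKY28 (-2.49), WRKY30 (-2.66), WRKY40 (-2.76), WRKY33 (-0.66) and ABO3 (-1.92) passed. Immune and hormone genes gave FRK1 (-1.87), RBOHD (-0.89), CERK1 (-1.06), SOBIR1 (-0.68), EDS5 (-1.15), EFE (-0.83) and ACS6 (-0.85). Among kinases related to CORK1 the values were AT1G56130 (-2.41), AT1G56140 (-1.06), AT1G53430 (-0.94) and AT1G53440 (-1.2).

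Genes with the largest deficits in HO gave DIR5 (-6.38), AT1G15625 (-4.89), CYP706A2 (-4.11), AT5G52670 (-3.54), MSRB8 (-3.49), GSTU12 (-3.47) and AT3G16530 (-3.38). The touch gene TCH3 (-3.15), the berberine family gene AT4G20830 (-1.9) and the dioxygenase gene AT3G13610 (-1.44) also passed, as did PLA2A (-2.03) and AT5G22555 (-1.69), which were called in both treatments. More positive values under CT were found for UMAMIT36 (4.28), PR-1-LIKE (2.72), AT2G29320 (2.33), AT4G08555 (2.3), NRT1.5 (2.25), CYP71B26 (2.25) and AT5G65380 (1.5) and for the iron factors BHLH100 (2.54) and bHLH39 (1.7).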

How the results depend on the processing

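The count of 745 genes called with CT, of which 690 were lower and 55 higher in HO, depended most on the test. Without the fold criterion 3068 genes passed, 2080 lower and 988 higher, and the share of lower genes was 67.8% in place of 92.6%. Tested against the fold criterion itself, 181 genes passed, 180 lower and 1 higher. With a t distribution of 8 degrees of freedom 494 genes passed, of which 20 were higher. With the 3 variances summed 371 passed, 356 lower and 15 higher, and with z divided by its spread of 1.65 it was 406, 391 lower and 15 higher. A mean of at least 50 left 33 higher genes. Adjusted p thresholds of 0.01 and 0.1, a mean of at least 10, centring, SEs rebuilt from the dispersion and, added after seeing the data, both CT groups above 3 counts gave 619 to 809 genes. In water, 4 genes passed a test against the fold criterion in place of 30, and without the fold criterion 37 genes passed in both treatments in place of 21. The genotype difference changed with treatment for 357 genes when it had to reach the fold criterion and for 89 with the t distribution, in place of 913. CORK1 was called under every alternative run. Of the named genes 32 lost their call against the fold criterion, 21 with the variances summed, 16 with z divided by its spread and 9 with the t distribution, and none of them reversed. Among the lists, camalexin genes called lower were 2 with the variances summed or against the fold criterion, in place of 5, and immune genes 0 against the fold criterion, in place of 2. No paired analysis was possible because the tables carry no values per library, and leaving out each replicate in turn could not be run for the same reason. Depth limits genes with a mean below 10, of which 2.42% had a 95% interval narrower than the fold criterion on either side.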

Other observations

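Genes were also grouped by the letters of their symbol, a grouping chosen after the data were seen, which gave 124 families of at least 10 tested genes, 83 of them with no called gene. Of 30 cysteine-rich receptor-like kinases (CRK), a family of membrane receptors many of which respond to pathogens and oxidative signals, 13 were called lower in HO with CT, and their median log2 difference was -1.45 with CT and -0.26 in water. Of 44 receptor-like proteins (RLP), which lack a kinase domain, 9 were called lower, with a median of -0.54. The detoxifying glutathione S-transferases gave 4 of 10 for the phi class (GSTF) and 4 of 26 for the tau class (GSTU), and 6 of 20 ERF factors were called lower, with a median of -0.44. Genes with a CYP symbol moved both ways, with 15 lower and 2 higher of 178. This grouping by symbol leaves out cytochrome P450 genes with other symbols. Shares near the 3.22% called over all tested genes were found for NAC factors, with 4.41% (3 of 68), and for UMAMIT transporters, with 2.63% (0 lower and 1 higher of 38).

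A pair of genes of anthocyanin synthesis and transport, singled out after their values were seen, was higher in HO in water only. LDOX, the leucoanthocyanidin dioxygenase, had levels of 9.3, 32.9, 67.5 and 31.2 in SWT with water, SWT with CT, HO with water and HO with CT, and its log2 difference was 2.86 in water (adjusted p 0.00503) and -0.077 with CT (adjusted p 0.965). GSTF12, needed for anthocyanin storage, had 15.7, 30.3, 54.8 and 24.3 in the same order, with 1.80 in water (adjusted p 0.0162) and -0.32 with CT (adjusted p 0.735).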
